A study of Macaca mulatta with 17 samples.

Results

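The 7 genes described here encode the receptors for prolactin and growth hormone and the proteins that carry and limit their signal: the receptors PRLR and GHR, the kinase JAK2, the transcription factors STAT5A and STAT5B, and the feedback inhibitors SOCS2 and CISH. They were taken by symbol from the probe descriptions of the array, a rule that uses no measured value, although the genes were picked with earlier results of these data known. Each of the 7 was found, out of 17188 distinct gene names on the array. Each was carried by 1 probe of 20217.

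Prolactin and growth hormone bind related single-pass receptors of the class I cytokine family, which hold no kinase of their own and signal through the bound kinase JAK2. JAK2 phosphorylates the latent factors STAT5A and STAT5B, which move to the nucleus and switch on target genes. Among these targets are SOCS2 and CISH, whose SH2 domain proteins bind the activated receptors and damp the signal. In the adult uterus prolactin is a product of the decidua, and growth hormone and its placental relatives are hormones of pregnancy.

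RNA was taken from the uteri of individual female rhesus macaque fetuses, and each uterus was measured on its own single-color Agilent array (Cy3 label). The 17 arrays formed 4 groups. The GD100 control group (n = 5) and the GD100 BPA group (n = 5) were delivered by caesarean section on gestational day 100, after their mothers had eaten a daily fruit treat from day 50. The GD165 control group (n = 4) and the GD165 BPA group (n = 3) were born vaginally at day 165 to 168, after treats from day 100. The BPA treats held 400 µg of deuterated bisphenol A per kg of maternal body weight per day, and the control treats held the ethanol vehicle. Age, exposure window and mode of delivery changed together between GD100 and GD165 and cannot be told apart. RNA came from 1 side of a uterus divided lengthwise, and stillborn fetuses were left out.

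A level below is the mean log2 signal of a probe's 2 spots once the 75th percentiles of all arrays had been made equal, and a difference of 1 is a 2-fold difference in signal. Differences were tested with limma across all 20217 probes, and a probe was called where the Benjamini-Hochberg adjusted p was at or under 0.01. The percentage of spots well above background was 83.8 to 89.0% per array. Of 8 genes used as a check on uterine identity, 6 were well above background on all 17 arrays, whereas HAND2 was on 9 and PGR on 3. The summed signal of 8 skeletal muscle genes was 8580 to 10896 in GD100 controls and 8990 to 12152 in GD100 BPA. It was higher on every GD165 array, at 15929 to 112480 in controls and 13766 to 62436 in BPA. Replicate 5 was the highest of each GD165 group. The summed signal of 7 squamous epithelium genes was at most 19201 in GD100 controls and 111868 in GD165 control replicate 6. That uterus was also the highest of all for adipocyte genes (44965) and hepatocyte genes (8411), and the part of these tissues in the results below was not tested.

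All 7 probes were well above background on all 17 arrays and saturated on 0. The probe sequences of the 3 genes that were called in any comparison are given here as the last 30 of their 60 bases, 5′ to 3′. They show what was hybridized, and the capitals mark a run of 12 bases that occurs at 2 places in the CISH probe. The array's descriptions of all 3 probes name human transcripts, and the sequences were not aligned to either genome here.
PRLR: aaccacagcaggatgctaatggaattactg
GHR: acatagaagaaacaaggttttcagtcccca
CISH: ccTTTATTACCTCTttatTTTATTACCTCT

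The CISH probe was rich in A and T, with a GC content of 25.0% against a median of 41.7% over all probes, and 2.83% of probes had a GC content as low or lower. The PRLR and GHR probes had 35.0% each. The longest run that any of the 7 probes shared with a probe of another name was 14 or 15 bases, and the STAT5A and STAT5B probes shared no run longer than 6 bases. The 2 spots of a probe differed by a median of 0.03 to 0.10 on the log2 scale. The largest gap was 1.36 for GHR in GD165 control replicate 1, so the GHR level of that array is less certain than the others.

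CISH, which encodes the cytokine-inducible SH2 protein, fell with age in controls and in BPA-exposed uteri. In GD100 controls its level was 12.69, 12.56, 12.46, 12.47 and 12.52 in replicates 1 to 5. In GD165 controls it was 11.55, 11.31, 11.69 and 11.43 in replicates 1, 3, 5 and 6. Every GD165 control therefore lay at least 0.77 below every GD100 control, a gap larger than the whole spread within either group. The mean fell by 1.05 on the log2 scale (SE 0.16, limma, Benjamini-Hochberg adjusted p = 0.00028), to 0.484 times the GD100 level. With the slide entered as a fixed block the difference was also -1.05 but the adjusted p rose to 0.0107, just past the threshold. Within the slides that held both groups, with 1 array of each, the difference was -1.16 and -0.97.

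In BPA-exposed uteri CISH stood at 12.51, 12.62, 12.59, 12.42 and 12.52 at GD100. At GD165 it was 12.02, 11.02 and 11.91 in replicates 3, 4 and 5. The groups again did not overlap, but replicate 4 was far lower than the other exposed GD165 uteri. The mean fell by 0.88 (SE 0.17, limma adjusted p = 0.0024), and without replicate 4 the difference was -0.57 with an adjusted p of 0.0040. The call was lost with slide as a fixed block (adjusted p = 0.047), without scaling between arrays (adjusted p = 0.020) and when only these groups were fitted (adjusted p = 0.027).

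PRLR, the prolactin receptor, was higher at GD165, and its spread among GD165 controls was the widest of the 7 genes in that group. In GD100 controls the level was 6.25, 5.90, 5.50, 5.52 and 5.70. In GD165 controls it was 7.49 in replicate 1, 5.93 in replicate 3, 5.88 in replicate 5 and 7.16 in replicate 6. Replicates 3 and 5 lay inside the GD100 range and replicates 1 and 6 lay above it, so the groups overlapped. Replicate 6 also had the high squamous signal given above, while replicate 1 had the lowest of the GD165 controls (12200), and the part of that tissue was not tested. The mean difference was 0.84 (SE 0.34), which did not pass the threshold (limma adjusted p = 0.092), and it was 0.46 with normexp correction and 0.55 without replicate 1.

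The exposed uteri gave a clearer separation for PRLR. The GD100 BPA level was 5.42, 6.37, 5.15, 5.18 and 5.87, and the GD165 BPA level was 7.08, 7.69 and 7.54. The lowest GD165 uterus stood 0.71 above the highest GD100 uterus. PRLR rose by 1.84 on the log2 scale (SE 0.37, limma adjusted p = 0.0030), 3.58 times the GD100 level. The size depends on the treatment of background, because the PRLR signal was low (31.4 to 227 in deposited units). With normexp correction and an offset of 50 the difference was 0.98 and its adjusted p 0.0022. It did not pass with slide as a fixed block (1.65, adjusted p = 0.034) or without GD165 BPA replicate 4 (1.72, adjusted p = 0.019) or 5 (1.79, adjusted p = 0.015).

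GHR, the growth hormone receptor, was lower at GD165. In GD100 controls its level was 9.03, 9.11, 8.93, 9.51 and 9.17. In GD165 controls it was 8.85, 8.69, 8.61 and 8.27. The groups did not overlap, with a gap of 0.08 between GD165 control replicate 1 and GD100 control replicate 3. The difference of -0.55 (SE 0.14) missed the threshold at a limma adjusted p of 0.0129, and passed it with normexp correction (-0.50, adjusted p = 0.0089), with quantile normalization (-0.64, adjusted p = 0.0088) and without GD100 BPA replicate 2 (-0.55, adjusted p = 0.0092).

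Among exposed uteri GHR was 9.14, 8.84, 9.20, 9.30 and 9.42 at GD100. It was 8.61, 8.39 and 8.42 at GD165. Every GD165 value lay below every GD100 value. GHR fell by 0.70 (SE 0.16, limma adjusted p = 0.0055), to 0.614 times the GD100 level. This call was close to the threshold: it held in 21 of the 32 alternative fits and was lost, for example, without any 1 of the 3 GD165 BPA arrays (adjusted p = 0.011 to 0.029) and without scaling between arrays (-0.52, adjusted p = 0.073).

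**Figure D1:**
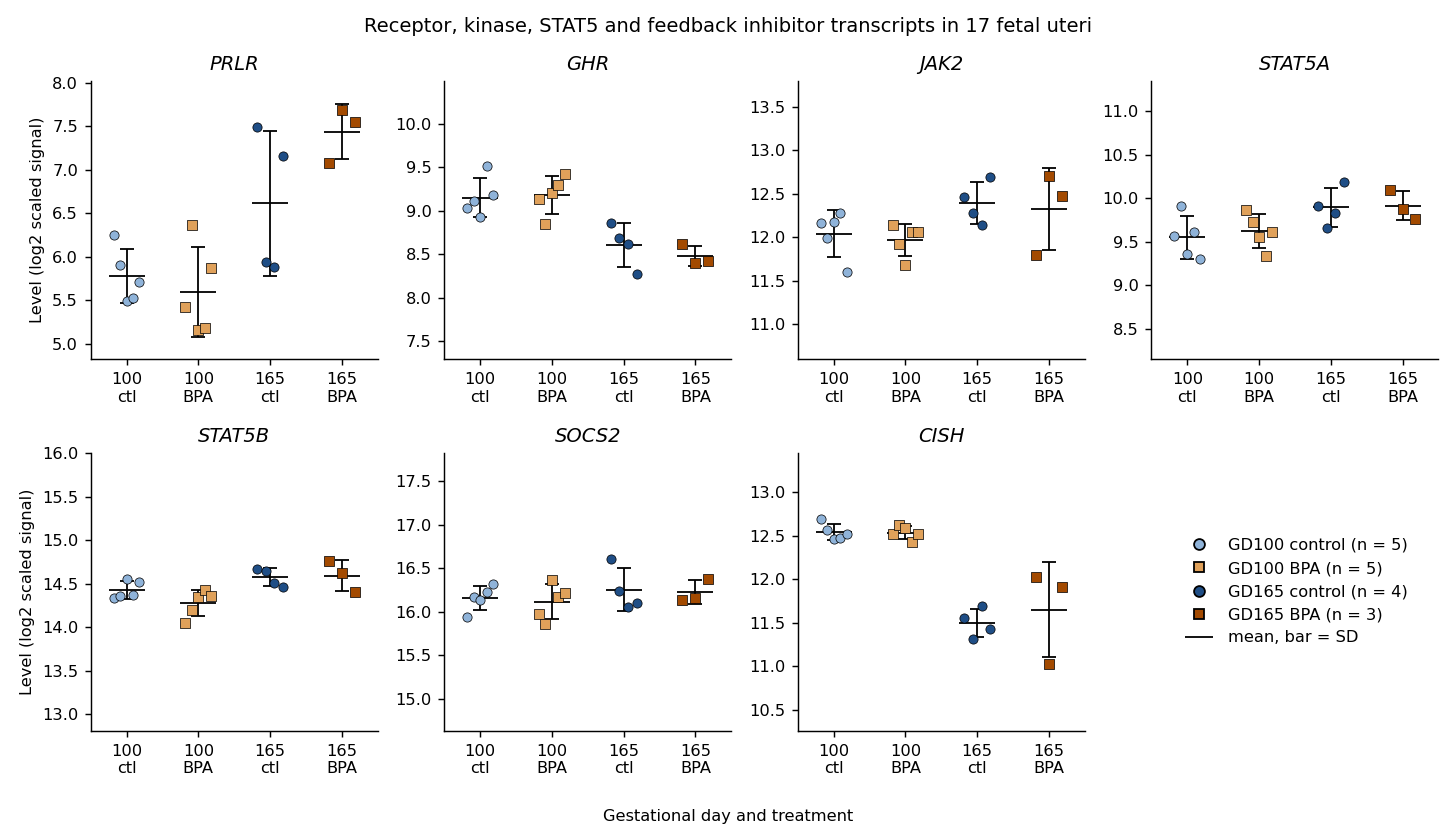
Levels (log2 scaled signal) of the 7 genes on each of the 17 arrays, by gestational day (100 or 165) and treatment (ctl, control). Each point is 1 uterus, the bar is the mean and the whisker the SD. Every panel spans the same number of log2 units, and CISH and GHR sit lower in both GD165 groups while PRLR is spread over 5.88 to 7.49 in GD165 controls.

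The kinase and both STAT5 factors passed in neither age comparison. JAK2 was 0.35 higher at GD165 in controls and in exposed uteri (SE 0.18 and 0.20, limma adjusted p = 0.20 and 0.22), and the exposed difference was 0.61 without GD165 BPA replicate 3 and 0.16 without replicate 4. STAT5A was 0.35 and 0.30 higher (SE 0.14 and 0.15, adjusted p = 0.096 and 0.19). STAT5B was 0.15 and 0.32 higher (SE 0.10 and 0.11, adjusted p = 0.32 and 0.045), so the second of these would pass only at a threshold of 0.05.

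SOCS2, a suppressor of cytokine signaling best known as a brake on growth hormone action, gave no such difference. Its level was 15.94 to 16.32 in GD100 controls, 15.86 to 16.37 in GD100 BPA, 16.05 to 16.60 in GD165 controls and 16.14 to 16.38 in GD165 BPA. All 4 groups overlapped. The age difference was 0.09 in controls (95% confidence interval -0.18 to 0.37) and 0.11 in exposed uteri (-0.18 to 0.41). Whether SOCS2 and CISH differed from each other in their age difference was not tested.

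In all, 1 of the 7 genes was called between GD165 and GD100 controls, and it was lower, beside 11.5% of all probes (6.32% higher and 5.2% lower), and 2 of 7 did not overlap between these groups, beside 19.4% of all probes. In the exposed uteri 3 of 7 were called, 1 higher and 2 lower, beside 9.68% (4.82% higher and 4.86% lower), and 3 of 7 did not overlap beside 27.2%. Without scaling between arrays the split of called probes moved from 974 higher of 1956 to 1246 higher of 1635 in the exposed uteri. At an adjusted p of 0.05 the counts were 2 and 4 of 7, beside 21.2% and 21% of all probes. The control and the exposed age comparisons share no arrays, though the fit takes its spread from all 17. Whether the age difference itself depended on BPA is the difference of the BPA effects at the 2 ages, and of the 7 genes 0 were called for it, beside 0% of all probes, 7.83% of which had an unadjusted p at or under 0.05. For PRLR that difference was 0.999 (95% confidence interval -0.07 to 2.06, limma adjusted p = 0.65). In bulk tissue, fewer cells of a type and less RNA per cell cannot be told apart.

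Epithelial marker genes moved with age as well. Of 9 epithelial genes measured, 6 were called higher at GD165 in controls, beside 6.32% of all probes, and 4 in exposed uteri, beside 4.82%. Their summed signal was 115820 to 169592 in GD100 controls, 104618 to 152238 in GD100 BPA, 227334 to 279261 in GD165 controls and 169166 to 231822 in GD165 BPA. None of these 9 was at background on all arrays. Of 8 smooth muscle genes measured, 2 were called higher in controls and 1 in exposed uteri, beside the same shares of all probes. Of 6 stromal genes, 1 was called lower in controls, beside 5.2% of all probes, and 0 in exposed uteri, beside 4.86%. The part of epithelial, smooth muscle and stromal cells in the PRLR, GHR and CISH differences was not tested.

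BPA was tested against control at each age. At GD100 none of the 7 genes (0) was called by limma, beside 0% of all probes, and 0 of the 7 had an unadjusted p under 0.05, a level that 3.79% of all probes reached. The differences ran from -0.18 for PRLR to 0.07 for STAT5A. The groups overlapped for all 7 genes, while 0.782% of all probes did not overlap. The PRLR difference had a 95% confidence interval of -0.86 to 0.50.

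At GD165 again 0 of the 7 were called by limma, beside 0% of all probes, and 1 of 7, PRLR, had an unadjusted p under 0.05, which 8.61% of all probes reached. PRLR was 0.82 higher in BPA-exposed uteri (95% confidence interval 0.0028 to 1.64, limma adjusted p = 0.58). The exposed levels of 7.08 to 7.69 overlapped those of control replicates 1 and 6 and lay above those of replicates 3 and 5. On the only slide with both groups, with 2 exposed uteri and 1 control, the difference was -0.11, and with slide as a fixed block it was 0.35. GHR differed by -0.13 and CISH by 0.16, each within the spread of the uteri. The remaining 4 genes lay between -0.07 and 0.02. None of the 7 separated the groups, whereas 7.31% of all probes did. Each BPA comparison shares its control arrays with the control age comparison and its exposed arrays with the exposed one. The study used another test, an error-weighted analysis of variance that was not rerun here, and it did call probes for BPA at both ages. At GD165 the paper reports the prolactin receptor as higher in the exposed uteri.

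**Figure D2:**
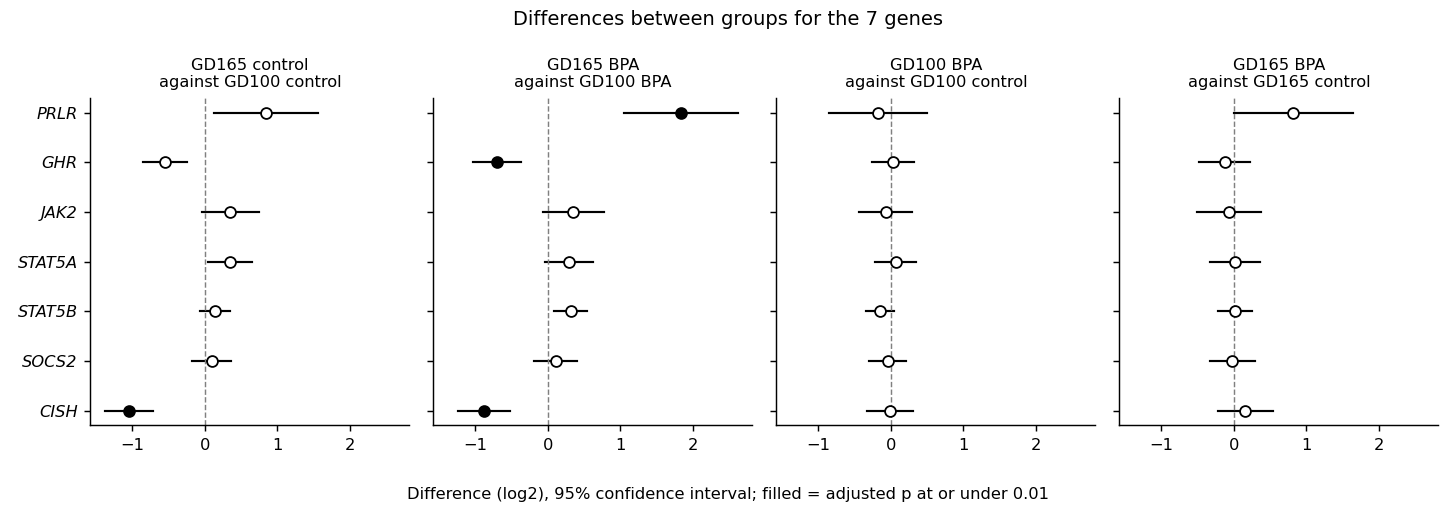
Difference in level (log2) for each of the 7 genes in the 4 comparisons, with 95% confidence intervals from limma. Filled points have an adjusted p at or under 0.01. CISH is filled in both age comparisons, PRLR and GHR in the exposed one, and no point is filled for BPA.

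The order of the PRLR group means was GD165 BPA (7.44 ± 0.32, SD, n = 3), GD165 control (6.62 ± 0.83, n = 4), GD100 control (5.77 ± 0.31, n = 5) and GD100 BPA (5.60 ± 0.52, n = 5). No pair of neighbours in that order passed the threshold. For CISH the order was GD100 control (12.54 ± 0.09), GD100 BPA (12.53 ± 0.08), GD165 BPA (11.65 ± 0.55) and GD165 control (11.50 ± 0.16). The GD100 groups were the tightest of all, and the break fell between GD100 BPA and GD165 BPA. GHR ran from GD100 BPA (9.18 ± 0.22) and GD100 control (9.15 ± 0.22) down to GD165 control (8.60 ± 0.25) and GD165 BPA (8.48 ± 0.12).

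Among the ligands, the probe for PRL, the pituitary and decidual hormone, lay near background, with levels from 2.54 to 4.42, and was well above background on 10 of 17 arrays and on 0 of 3 in GD165 BPA. It did not overlap between GD165 BPA (mean 3.03) and GD100 BPA (mean 3.896), which also held for 27.2% of all probes. The difference of -0.87 did not pass the threshold (limma adjusted p = 0.029). The size is uncertain at this signal: it was -0.28 with normexp correction, -0.63 without GD165 BPA replicate 3, and -1.18 without replicate 5, where it passed (adjusted p = 0.0080).

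The probes named for growth hormone (GH1), placental growth hormone (GH2) and the placental lactogens (CSH1, CSH2) come from 1 gene cluster and are near copies of each other. All 4 contain the same run of 31 bases. The 30 bases below start at the last 16 bases of that run, given in capitals, and show how alike the probes are.
GH1: CCAGTGCCCACCAGCCttgtcctaataaaa
GH2: CCAGTGCCCACCAGCCatgtcctaataaaa
CSH1: CCAGTGCCCACCAGCCatgtcctaataaaa
CSH2: CCAGTGCCCACCAGCCttgtcctaataaaa

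All 4 were well above background on all 17 arrays and moved together. Between GH2, CSH1 and CSH2, the difference of any pair departed from its own mean by at most 0.17 on any array. For GH1, whose pairs departed by up to 0.56, the level was 11.01, 10.83, 12.17, 10.80 and 10.71 in GD100 controls and 14.40, 12.67, 11.23, 12.32 and 11.51 in GD100 BPA. At GD165 it was 10.20, 10.09, 10.29 and 11.71 in controls and 11.28, 10.41 and 11.45 in BPA. GD100 BPA replicate 1 stood above all other arrays, 1.73 over the next, and 3 of the 5 exposed GD100 uteri exceeded the highest control of their age.

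The GD100 BPA group was higher by 1.32 (GH1), 1.52 (GH2), 1.47 (CSH1) and 1.54 (CSH2), with unadjusted p of 0.022 to 0.025, but none passed (limma adjusted p = 1.0 for each, and 0 of all probes passed). Without replicate 1 the differences were 0.83, 0.97, 0.94 and 0.997. Of 10 trophoblast genes, a list chosen after these values were seen, 4 were highest in the same array. The share of all probes that were highest there is not given, so this count only describes the list. CGA, the glycoprotein hormone alpha subunit, was at 7.26 there and at most 3.85 elsewhere, and CYP19A1, aromatase, was at 5.32 and at most 2.91 elsewhere. PLAC1 was at 10.80 against at most 10.23, and KISS1 at 13.5 against at most 12.45. The other 6 were not highest there: GCM1 was at 7.43 against up to 7.75 elsewhere, ERVWE1 at 4.79 against up to 4.95, PAPPA at 9.72 against up to 9.82, and PAPPA2 at 3.30, below the median of 3.68 on the other arrays. The summed signal of the 10 genes was 1922 to 7243 in GD100 controls and 2366 to 14585 in GD100 BPA. It was 1306 to 2211 in GD165 controls and 1229 to 2468 in GD165 BPA. In GD100 BPA replicate 1 KISS1 was the brightest of the 10 and made up most of the sum. HSD3B1 and PSG1 were at background on all arrays. The part of the 10 genes in the ligand signal was not tested.

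**Figure D3:**
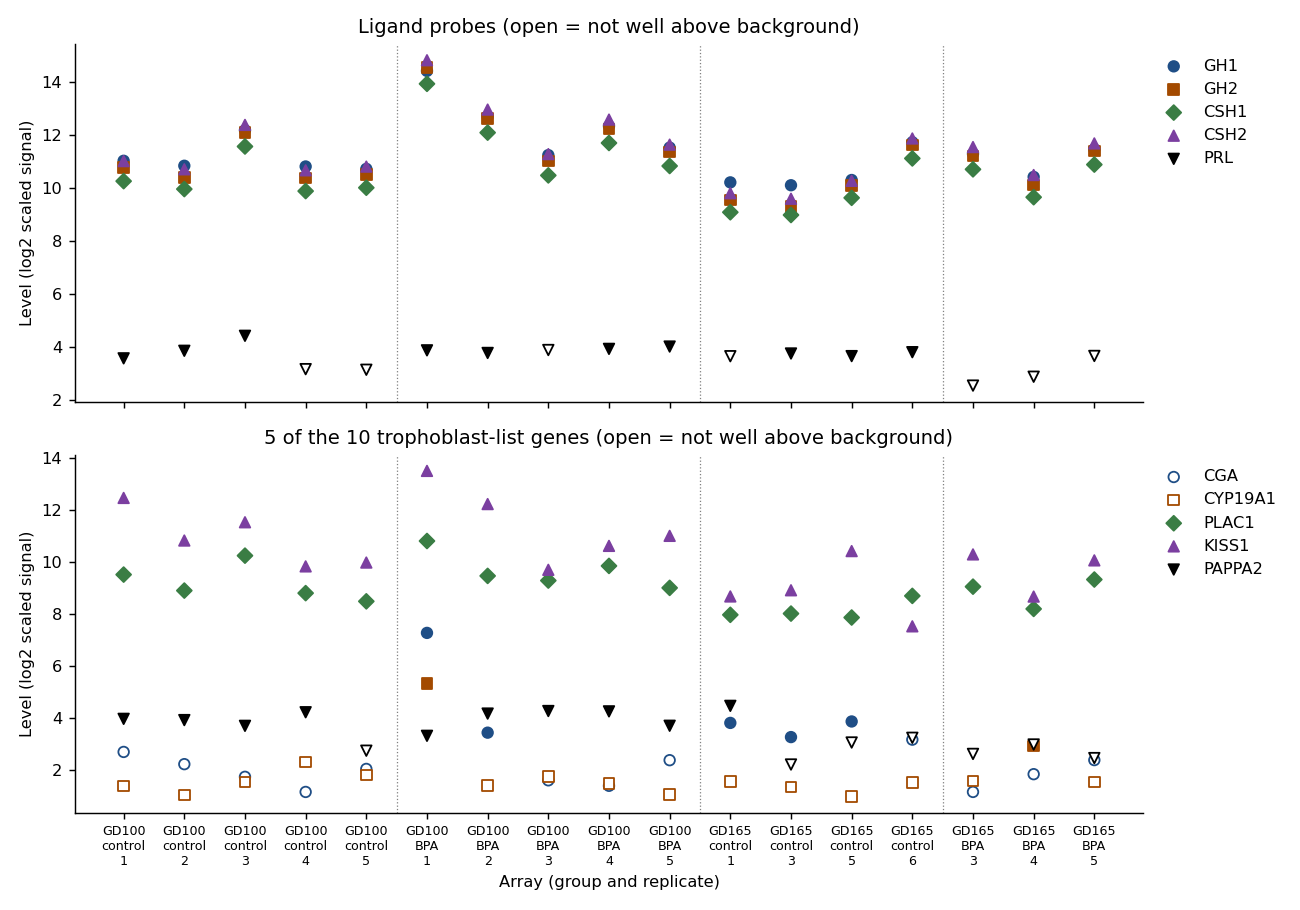
Levels (log2 scaled signal) of the ligand probes (top) and of 5 of the 10 trophoblast genes (bottom) on each array, in the order of the groups. Open symbols were not well above background. The 4 GH and CSH probes move together and are highest in GD100 BPA replicate 1, where CGA, CYP19A1, PLAC1 and KISS1 are also highest. PAPPA2 and the listed genes that are not drawn were not highest there.

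Without GD100 BPA replicate 1, PRLR and CISH kept their calls between the exposed ages, and GHR differed by -0.71 with an adjusted p of 0.0104, just past the threshold.

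Beyond the 7 genes, 55 of 59 listed genes of the pathway were on the array, 49 of them well above background on all arrays. In controls 5 of the 55 were called, all higher at GD165, beside 11.5% of all probes called and 6.32% called higher (34 of 55 had a higher mean, and the median difference was 0.11 beside 0.00 over all probes). In exposed uteri 5 were called, 4 higher and 1 lower, beside 9.68% of all probes (29 of 55 had a higher mean, and the median was 0.04 beside -0.05). The list was drawn up with earlier results of these data known, and these counts describe it.

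Of 14 STAT5 target genes, 3 were called in controls, all higher, beside 6.32% of all probes, and 2 in exposed uteri, beside 4.82%. IRF1, an interferon-responsive transcription factor, was 11.26 to 11.67 in GD100 controls and 12.13 to 12.59 in GD165 controls, a rise of 0.94 (SE 0.11, limma adjusted p = 4.9e-05). It rose by 1.10 in exposed uteri (SE 0.12, adjusted p = 7.2e-05), and it was called in all 32 alternative fits of each comparison. Those fits share arrays and are not independent checks. BCL6, a transcriptional repressor, rose by 0.88 in controls and 0.75 in exposed uteri (adjusted p = 0.0016 and 0.0094), the second call being lost in 17 of the 32 alternative fits. BCL2L1, an inhibitor of apoptosis, rose by 0.52 in controls (adjusted p = 0.000855) and differed by 0.21 in exposed uteri (adjusted p = 0.15). Of the 14, 12 had a higher mean at GD165 in controls and 8 in exposed uteri.

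Among 8 other Janus kinases and STATs only STAT6, the factor of interleukin-4 signaling, was called, higher by 0.46 in controls and 0.43 in exposed uteri (adjusted p = 0.0012 and 0.0043). The STAT6 calls held in 29 and 24 of the 32 alternative fits. Of 15 negative regulators, PTPN6, a phosphatase of blood cells that also acts on cytokine receptors, rose by 0.75 and 0.59 (limma adjusted p = 9.9e-05 and 0.0016). Its groups overlapped in neither comparison, which also held for 19.4% and 27.2% of all probes. PTPN6 was called in 32 and 29 of the alternative fits. PIAS4, a SUMO ligase that restrains STATs, fell by 0.39 in exposed uteri (adjusted p = 0.0078) and differed by -0.12 in controls. The exposed PIAS4 call held in 16 of 32 alternative fits. Of 13 genes of the adaptors and the mitogenic arm, 0 were called in either age comparison.

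PTPN6 is best known from leukocytes. Of 11 leukocyte genes measured, 1 was called higher in each age comparison, beside 6.32% of all probes in controls and 4.82% in exposed uteri. Their summed signal was 15177 to 27013 in GD100 controls, 19026 to 28291 in GD100 BPA, 25154 to 39437 in GD165 controls and 25375 to 48904 in GD165 BPA, and CD3D was at background on all arrays. The part of these cells in the pathway differences was not tested.

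For BPA, 0 of the 55 pathway genes were called by limma at either age, and 5 at GD100 and 4 at GD165 had an unadjusted p under 0.05, beside 3.79% and 8.61% of all probes. At GD100 4 of the 5 were the GH and CSH probes, which cannot be told apart. The smallest p at GD100 belonged to GAB2, an adaptor of the mitogenic arm (0.41 higher, adjusted p = 1.0), followed by GH1 and CSH2. At GD165 it belonged to IGFALS, the acid-labile subunit that carries insulin-like growth factors in blood. IGFALS was 10.13, 10.48, 10.27 and 10.41 in controls and 9.66, 10.02 and 9.74 in BPA, a difference of -0.51 without overlap (adjusted p = 0.41). The next were OSM, for which 0 arrays were well above background, and PRL. In this comparison 4 of the 55 genes did not overlap, beside 7.31% of all probes.

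**Figure D4:**
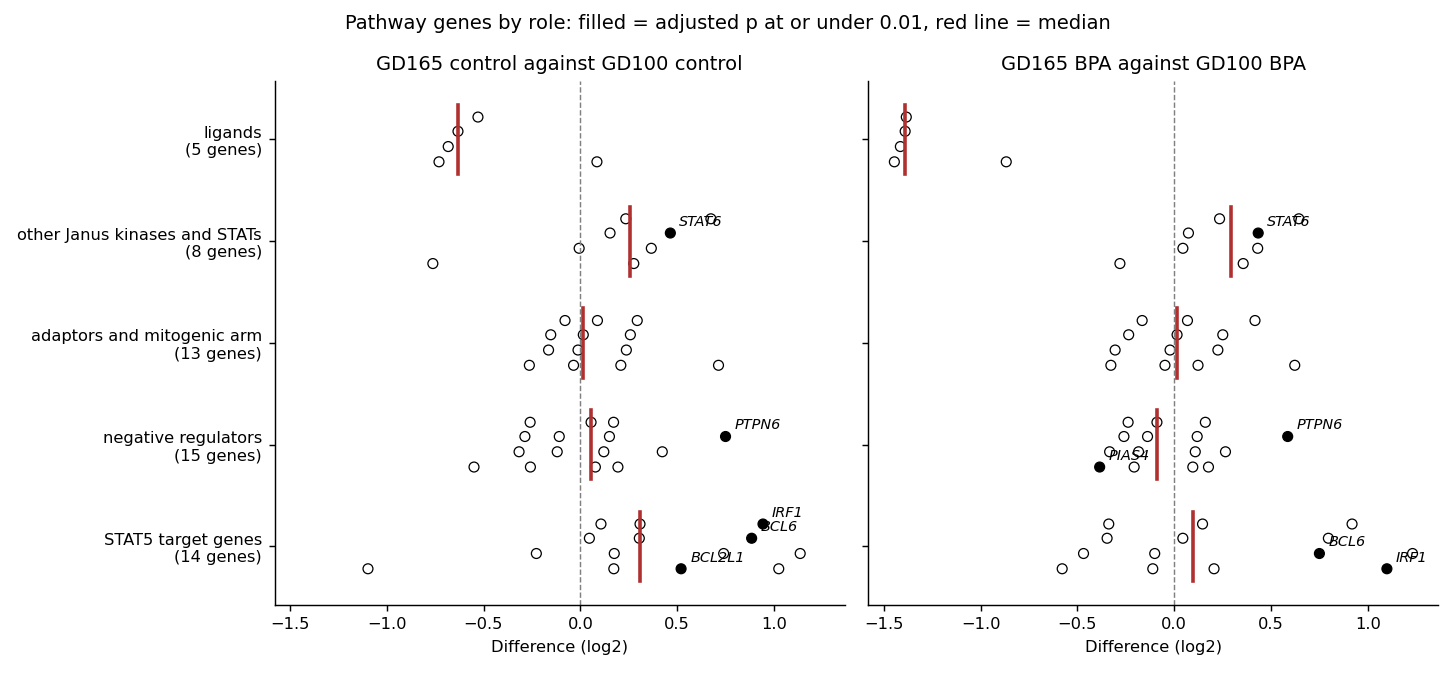
Age differences (log2, GD165 minus GD100) of the 55 pathway genes, grouped by role, in controls (left) and BPA-exposed uteri (right). Filled points have a limma adjusted p at or under 0.01 and are named, red lines mark the median of each role, and height within a role carries no meaning. IRF1, BCL6, STAT6 and PTPN6 are filled on both sides.

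The genes whose levels ran most like those of each receptor and inhibitor over the 17 arrays were ranked among named probes detected above background on each array. The values are descriptions without a test, since the arrays share 4 groups and 1 scaling. PRLR ran most like C18orf1 (Pearson's r = 0.95), TIEG2 (0.93) and OBP2A (0.91), and after the group means were removed r was still 0.91, 0.81 and 0.78. GHR ran most like GRIA3 (0.92), NYD-SP26 (0.91) and ESRRG (0.91), which fell to 0.68, 0.64 and 0.68 within groups.

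CISH ran most like CIT (0.96), CCNF (0.95) and FLJ16008 (0.95), with 0.81, 0.69 and 0.67 once the group means were removed. For SOCS2, whose groups overlapped, the closest were PITPNM1 (0.76), CYP4F12 (0.75) and EIF3S7 (0.73), and these values changed little without the group means (0.73, 0.74 and 0.73).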

How the data were processed

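RNA from 17 individual uteri was hybridized to Agilent single-color arrays on 6 slides. The authors extracted spot intensity values with Agilent Feature Extraction 9.5 at its defaults (background subtraction and detrending), and the deposited intensities are linear and not scaled between arrays. The series' value table holds the same numbers (711467 of 711467 identical, tolerance 0).

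Control spots and outlier spots were left out, log2 intensities of replicate spots were averaged, each array's 75th percentile was subtracted and the mean of the percentiles, 12.62, was added back. The 75th percentile of intensity was 5524 to 7319 per array. A probe was well above background on an array where at least 1 of its 2 spots was so flagged. limma 3.58.1 in R 4.3.3 (lmFit, eBayes) was fitted to all arrays with 4 group means, two-sided, with Benjamini-Hochberg adjustment over 20217 probes and the threshold of 0.01 from the study's methods. Their error-weighted variance analysis was not rerun. The fit was also run on simulated data with independent noise and no slide effect. That run cannot speak to the calls lost with slide as a fixed block. Descriptions and plots used Python 3.11.15, numpy 2.4.6, pandas 2.3.3 and matplotlib 3.10.9.

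Where a gene had more than 1 probe, the brightest on average was used. Named pathway genes were those called in any comparison, the 3 with the smallest p in each, and every ligand, and for PRLR, GHR, SOCS2 and CISH the 3 genes with the highest Pearson's r were named. The members and the lists were chosen with earlier results of these data known. Each array is 1 fetus, and the number of arrays limits the precision. Probes take the array's gene names, and no genome coordinates are given because the array's build differed from the reference table. Alternatives covered background, scaling, filters, weights, moderation, slide and replicate blocks, the threshold and leaving out each array.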

Additional observations from a re-analysis of the deposited data

Results flagged for a closer look

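Gaps between the highest or lowest uterus and the rest of its group were examined for 21 genes in 63 groups of 4 or 5 arrays, and 5 were past Dixon's critical value, where chance gives about 1 group in 20. All 5 belong to the GH and CSH probes, which cannot be told apart and so count as 1 signal. In GD100 control replicate 3 the level was 12.17 for GH1, 12.08 for GH2, 11.55 for CSH1 and 12.37 for CSH2, and the next highest GD100 controls were at 11.01, 10.76, 10.25 and 11.0. In GD165 control replicate 6 GH1 was at 11.71 and the next control at 10.29.

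PRL differed in opposite directions at the 2 ages: every GD100 BPA uterus lay above the mean of its controls and every GD165 BPA uterus below it. The difference of the effects was -0.95 (limma adjusted p = 0.55), so it was not called, and PRL was well above background on 0 of 3 GD165 BPA arrays.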

How the results depend on the processing

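Counts of called members and pathway genes were recomputed under each alternative. For the control age comparison the member count was 2 with normexp correction, with quantile normalization and at an adjusted p of 0.05, and 0 with slide as a fixed block. For the exposed age comparison it was 1 without scaling between arrays and when only the compared groups were fitted, and 0 with slide as a fixed block. Leaving out each array in turn gave 1 to 2 members in controls and 1 to 3 in exposed uteri (1 without GD165 BPA replicate 4 or 5, which left CISH), and 5 to 7 and 2 to 6 pathway genes. The exposed pathway count was 1 when only the compared groups were fitted and 1 with slide as a fixed block. At an adjusted p of 0.05 the pathway counts were 12 of 55 in controls and 10 of 55 in exposed uteri, beside 21.2% and 21% of all probes. For BPA, the counts stayed at 0 under all alternatives run.

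Replicate numbers are shared between groups, but nothing ties a number to a family, and deviations of same-numbered uteri correlated by only -0.17 to 0.12. With a replicate block the pathway counts were 2 in controls and 3 in exposed uteri, and the member counts did not change.

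Among the single genes, 4 differences turned sign, none of them called: GHR for BPA at GD165 (0.0326 without scaling), SOCS2 between the exposed ages (-0.0936 with slide as a fixed block), CISH for BPA at GD165 (-0.029 to 0.469 over the arrays left out, the lowest without GD165 BPA replicate 3) and SOCS2 between the control ages (-0.0232 to 0.159, the lowest without GD165 control replicate 1). Without scaling the median of all probes moved from -0.05 to 0.13 between the exposed ages. Over all single-gene recalculations 1131 kept direction and side of the threshold, 69 lost the call and 7 gained it. The causes were not tested. A scan-day block could not be fitted, since all arrays were scanned on 1 day, and the promoter searches were not run. Low signal limits the size of the PRLR and PRL differences.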
